A study of Hordeum vulgare with 12 samples.

Results

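The sequences described here are those of miR164, the microRNA family of plants whose 5p sequences pair with messages of NAC transcription factors. They were taken from a small RNA study of the spring barley cultivar Golden Promise as every listed sequence whose name field mentions miR164 more often than any other family number. The rule found 29 of the 3258 sequences in the deposited tables, of which 10 had a count in any library, against 697 of the 3258 overall. The study sequenced root and shoot of 2-week-old plants grown in perlite. Nitrogen-excess plants received a medium with 280 mM NH4NO3, and control plants received 28 mM in a medium that was otherwise the same. The 4 groups were nitrogen-excess root, control root, nitrogen-excess shoot and control shoot, each with 3 libraries that the labels call biological replicates. The labels name no genetic modification, and seedlings stood in pairs in a pot.

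A miR164 gene is transcribed into a hairpin, and a Dicer-like enzyme cuts a short duplex out of its stem. The strand from the left side of the stem is the 5p sequence and the strand from the right side is the 3p sequence. In Arabidopsis the 5p strand is loaded into ARGONAUTE proteins and guides cutting of NAC messages, among them the CUP-SHAPED COTYLEDON genes that set organ boundaries and NAC genes that act in lateral root growth and leaf senescence. The 3p strand is usually the partner that is discarded. NAC messages were not measured here.

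Of the 29 sequences, 12 were from the 5p side and 17 from the 3p side. Names gave the arm for all but 6 sequences, which were placed on the 5p arm by similarity to named members. None carried a barley name, so each is called here by the first name in its list that states an arm, or by its first name, and the prefix gives the species: ata is Aegilops tauschii, bdi is Brachypodium distachyon, bra is Brassica rapa, zma is maize and osa is rice. Lengths ran from 20 to 22 nt, and 25 of the 29 were 21 nt long. The sequences that carried nearly all counts, and the 5p sequence with the most names, are printed 5′ to 3′ as the deposited tables give them, with T for U and with bases 2 to 8, the seed, in capitals.

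ata-miR164a-5p: tGGAGAAGcagggcacgtgct

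ata-miR164c-5p: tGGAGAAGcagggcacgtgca

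bdi-miR164a-3p: cATGTGCCcttcttctccacc

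ata-miR164c-3p: cACGTGTTcttctcctccatc

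bra-miR164b-3p: cACGTGTTctactactccaac

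The 5p sequences were alike and the 3p sequences were not. The seed GGAGAAG stood in 11 of the 12 listed 5p sequences and in all 5 that had a count. The 17 listed 3p sequences had 9 different seeds, and 2 of these, ATGTGCC and ACGTGTT, were in 4 sequences each. Counting positions from 1 at the 5′ end, ata-miR164c-3p differs from bdi-miR164a-3p by T3C, C7T, C8T, T14C and C20T, where the base of bdi-miR164a-3p is given first, and 3 of these changes lie in the seed. The sequence ata-miR164c-5p differs from ata-miR164a-5p only by T21A, the last base. Laid against each other with an overhang at each 3′ end and no gaps, ata-miR164a-5p and bdi-miR164a-3p formed 17 Watson-Crick pairs and 1 G-U pair over 19 positions, and ata-miR164a-5p and ata-miR164c-3p formed 15 Watson-Crick pairs and 2 G-U pairs.

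The family held few counts. All miR164 sequences together had 1503 of the 13883692 counts listed over the 12 libraries, which is 108 CPM of the listed counts before any scaling. Single libraries held between 11 and 358 miR164 counts, out of 245176 to 2246495 listed counts. Counting error is therefore large in the thinner libraries, and the intervals given below cover counting error only.

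Before the results, the labels were checked against the other sequences. Each library was placed on a line on which the mean profile of the other shoot libraries is 0 and that of the other root libraries is 1, using 174 sequences of other families. The 5 root libraries other than control root 3 lay between 0.77 and 1.38, and the 5 shoot libraries other than nitrogen-excess shoot 3 lay between -0.35 and 0.03. Nitrogen-excess shoot 3 lay at 1.06, among the root libraries. Control root 3 lay at -0.19, among the shoot libraries. These libraries go against their tissue labels, and many, but not all, of the results that rest on them are given with and without them. Both are in the same series of run names, and whether their labels were exchanged was not tested. The run names in the titles fall into 3 naming series: A holds replicate 1 of every group, C holds nitrogen-excess root 3 only, and B holds the others. What the series stand for in the laboratory is not stated.

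Of the counts as listed, the 3p arm held more than the 5p arm. Its 5 counted sequences summed to 945 counts, against 558 for the 5 counted 5p sequences, so that 62.9% of miR164 counts were 3p. On the 3p arm, bdi-miR164a-3p had 607 counts, ata-miR164c-3p 318, bra-miR164b-3p 18, and bdi-miR164c-3p and zma-miR164b-3p 1 each. On the 5p arm, ata-miR164a-5p had 541 counts, zma-miR164h-5p 11, bra-miR164c-5p 3, osa-miR164e 2 and bdi-miR164f 1. A single 5p sequence thus made up 97.0% of the 5p counts, while 2 sequences with different seeds made up 97.9% of the 3p counts. The other 12 sequences of the 3p arm and 7 of the 5p arm had no count in any of the 12 libraries.

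Among the sequences with no count was ata-miR164c-5p, the 5p sequence with the widest naming, which carries 36 names from 13 species. If its reads could be listed under it, 0 of 13883692 counts would allow a level of up to 0.216 unscaled CPM over all libraries (3 counts). In single libraries the limit would be 1.34 to 12.2 unscaled CPM. Whether its reads could be listed so is not stated, so the 0 alone sets no limit on its level. The sequence that differs from it by the last base alone, ata-miR164a-5p, carries 6 names from 6 species and was counted in all 12 libraries. In the deposited tables ata-miR164c-5p lies whole inside a longer listed sequence, the 22-nt bra-miR164e-5p, which also had no count. Over the whole tables, none of the 132 listed sequences that lie inside a longer listed sequence had a count, while 697 of the 3126 others had one, or 22.3%. Of the 147 sequences that hold a shorter listed sequence and lie in none, 80 had a count, or 54.4%. The part of this listing in the missing ata-miR164c-5p counts was not tested. The miR164 sequences inside a longer listed one, ata-miR164c-5p and gma-miR164d, are both on the 5p arm and add no count to it. What this does to the 3p shares given here was not tested either.

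For the 3 sequences with the most counts, the partner named from the same hairpin had few counts or none. The names gave 22 hairpin names with both arms listed, of which 5 had counts on both arms, 4 on the 5p arm only, 3 on the 3p arm only and 10 on neither. These are names from other species that share sequences, not separate pairs. Among those with both arms counted, ath-miR164c (Arabidopsis thaliana), bra-miR164b, bra-miR164c and bra-miR164d all name bra-miR164c-5p, with 3 counts, and bra-miR164b-3p, with 18. For ata-miR164a the 5p sequence had 541 counts and the 3p sequence 0, and for bdi-miR164c the same 5p sequence stands beside a 3p sequence with 1 count. For bdi-miR164a the 3p sequence had 607 counts, and its named 5p partner is the same sequence as ata-miR164c-5p, with 0. The hairpin ata-miR164c had 318 counts on its 3p arm and shares that uncounted 5p sequence. Both 5p sequences formed the same number of pairs with either of these 3p sequences, because the base in which they differ, the last one, lies outside the 19 positions.

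All levels from here on are in CPM scaled by edgeR's trimmed mean of M-values (TMM) over the 12 libraries. Of the 29 miR164 sequences, 3 passed the filter on low counts in any fit, and their levels are plotted by library. Over the whole series, 177 of 3258 sequences passed it in the 12-library fit.

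**Figure D1:**
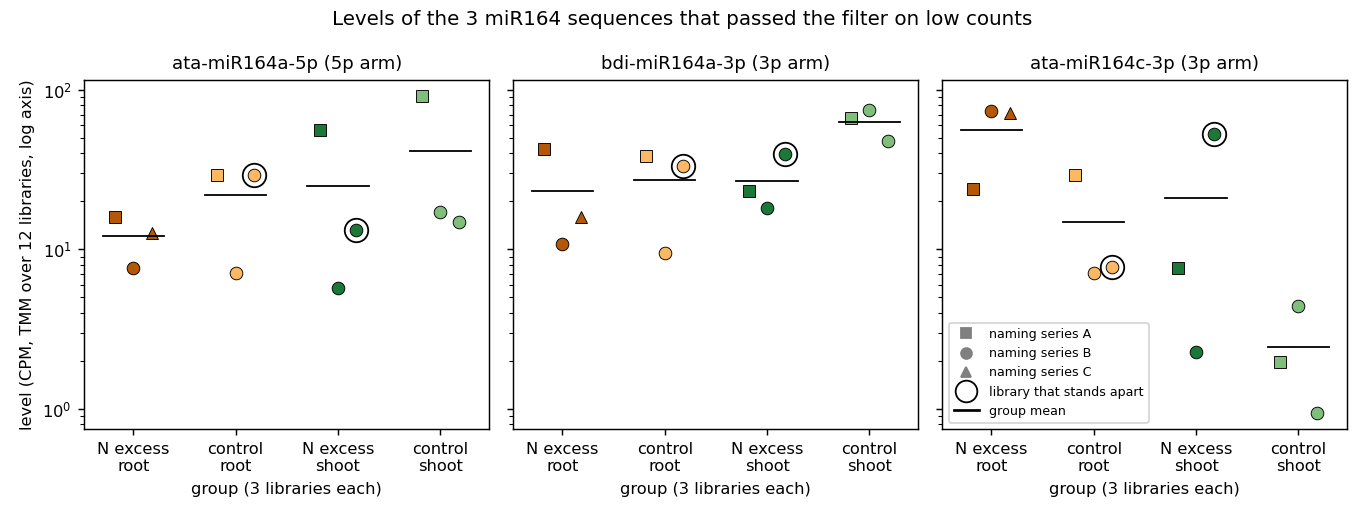
Level of the 3 miR164 sequences that passed the filter on low counts, in CPM on a log axis, by group; points are single libraries, shaped by naming series, lines are group means, and rings mark nitrogen-excess shoot 3 and control root 3. ata-miR164c-3p was at 24.0 to 73.7 CPM in nitrogen-excess root and at 0.933 to 4.38 CPM in control shoot, and bdi-miR164a-3p was highest in control shoot. On this TMM scale ata-miR164a-5p was highest in replicate 1 of each group, which did not hold in root before scaling.

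The 3p sequence ata-miR164c-3p was the member with the widest spread between groups. It had 9, 48 and 171 counts in nitrogen-excess root 1 to 3, or 24.0, 73.7 and 71.7 CPM, and 19, 3 and 9 counts in control root 1 to 3, or 29.4, 7.07 and 7.73 CPM. It had 31, 2 and 12 counts in nitrogen-excess shoot 1 to 3, or 7.59, 2.27 and 52.9 CPM, and 3, 9 and 2 counts in control shoot 1 to 3, or 1.96, 4.38 and 0.933 CPM. Both high root libraries are from nitrogen-excess plants, and the single high library with a shoot label is nitrogen-excess shoot 3, which lies among the root libraries by its other sequences. Group means were 56.5 ± 28.1 CPM in nitrogen-excess root, 14.7 ± 12.7 CPM in control root, 20.9 ± 27.8 CPM in nitrogen-excess shoot and 2.43 ± 1.77 CPM in control shoot (SD, n = 3 each). Without nitrogen-excess shoot 3, the nitrogen-excess shoot mean was 4.93 ± 3.76 CPM (n = 2). In bulk tissue, fewer cells that hold the RNA and less RNA per cell cannot be told apart.

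In root against shoot of control plants all 3 root libraries, at 7.07 CPM or more, were above all 3 shoot libraries, at 4.38 CPM or less, with a log2 fold change of 2.56 ± 1.17 (SE) and an adjusted p of 0.234 (edgeR's quasi-likelihood test, Benjamini-Hochberg over 177 sequences). That separation rests on the scaling. Before it, control root 2 held 3 of 1148952 listed counts and control shoot 2 held 9 of 1215590, so the groups overlapped. In this comparison edgeR called 0 of 177 sequences (0%), 35 had an unadjusted p under 0.05, and 8.47% of sequences were higher in every root library than in every shoot library. In nitrogen-excess plants the groups overlapped, with a log2 fold change of 1.59 ± 1.13 and an adjusted p of 0.733 by the same edgeR test, while within each replicate number root was above shoot, at 24.0 against 7.59, 73.7 against 2.27 and 71.7 against 52.9 CPM. With the replicate number as a block the value was 1.80 ± 1.22 with an adjusted p of 0.735 by edgeR. The labels do not state this pairing, and the third pair holds nitrogen-excess shoot 3, which lies among the root libraries. For how many of the 177 sequences root was above shoot in every number is not given. The test without the block called 0 of 177 sequences (0%), and 9 had an unadjusted p under 0.05.

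The single call of the sequence needed both libraries that stand apart to be left out. Without nitrogen-excess shoot 3, the only one of them in the nitrogen-excess comparison, the log2 fold change was 3.37 ± 1.09 with an adjusted p of 0.099 by edgeR, which called 0 of 183 sequences (0%). With control root 3 left out as well, which enters the fit through the shared spread and scaling, ata-miR164c-3p was higher in root than in shoot of nitrogen-excess plants by 3.36 ± 1.06 on the log2 scale, with an adjusted p of 0.040 (edgeR, Benjamini-Hochberg over 183 sequences), as were 15.8% of all sequences tested. Its 3 root libraries, at 24.0 CPM or more, were then above both remaining shoot libraries, at 7.59 CPM or less, as was so for 27.3% of all sequences. In control plants without both, the log2 fold change was 2.59 ± 0.98 and the adjusted p 0.070, when 18.6% of all sequences were called higher in root. Within naming series B, which holds both libraries, the log2 fold change was 1.20 ± 1.46 in control plants, with an adjusted p of 0.810 by edgeR. In nitrogen-excess plants it was 1.37 ± 1.64, where root has 1 library in the series, assumed to vary like the other groups. Series A has 1 library a group and gives no test; there ata-miR164c-3p was at 24.0 CPM in root and 7.59 CPM in shoot of nitrogen-excess plants, and at 29.4 CPM in root and 1.96 CPM in shoot of control plants.

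Nitrogen excess against control in root gave ata-miR164c-3p a log2 fold change of 1.96 ± 1.03, with an adjusted p of 0.955 (edgeR's quasi-likelihood test, Benjamini-Hochberg over 146 sequences). On the 12-library TMM scale the groups overlapped, because control root 1, at 29.4 CPM, was above nitrogen-excess root 1, at 24.0 CPM. That overlap rests on the scaling. Before it, nitrogen-excess root 1, the lowest of its group, held 9 of 451297 listed counts. The highest control library, control root 3, held 9 of 655033, so the groups did not overlap. The share of all sequences for which this was so is not given. The test called 0 of 146 sequences (0%), and 1 had an unadjusted p under 0.05; ata-miR164c-3p had rank 5 by p. With total counts in place of TMM the log2 fold change was 2.54 ± 1.15, with an adjusted p of 0.760 by edgeR. Without control root 3 the log2 fold change was 1.83 ± 1.14, with an adjusted p of 0.796 by edgeR. Within naming series B, with nitrogen-excess root 2 against 2 control libraries, it was 3.02 ± 2.69. The authors' deposited table, whose values are not from this fit, gives 2.15 on the log2 scale for nitrogen excess against control with p = 0.032 and an adjusted p of 0.958 from DESeq2.

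In shoot, ata-miR164c-3p did not pass the filter on low counts. Fitted with no filter, its log2 fold change of nitrogen excess against control was 2.43 ± 1.20, with an adjusted p of 0.584 by edgeR. The authors' deposited table gives 2.52 with an adjusted p of 0.317. The highest nitrogen-excess shoot library was replicate 3 at 52.9 CPM, which stands apart. Of the others, nitrogen-excess shoot 1, at 7.59 CPM, was above all 3 control shoot libraries, and nitrogen-excess shoot 2, at 2.27 CPM, lay among them.

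The most abundant sequence, bdi-miR164a-3p, was highest in control shoot. It had 16, 7 and 38 counts in nitrogen-excess root 1 to 3, or 42.7, 10.7 and 15.9 CPM, and 25, 4 and 39 counts in control root 1 to 3, or 38.7, 9.43 and 33.5 CPM. It had 95, 16 and 9 counts in nitrogen-excess shoot 1 to 3, or 23.3, 18.2 and 39.6 CPM, and 102, 154 and 102 counts in control shoot 1 to 3, or 66.7, 75.0 and 47.6 CPM. Each control shoot library was above all 9 libraries of the other groups, and the share of all sequences for which this was so is not given. Group means were 23.1 ± 17.2 CPM in nitrogen-excess root, 27.2 ± 15.6 CPM in control root, 27.0 ± 11.2 CPM in nitrogen-excess shoot and 63.1 ± 14.1 CPM in control shoot (SD, n = 3 each). The first 3 of these means differ from each other by less than their SDs.

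Nitrogen excess against control in shoot gave bdi-miR164a-3p a log2 fold change of -1.43 ± 0.78, with an adjusted p of 0.443 (edgeR's quasi-likelihood test, Benjamini-Hochberg over 148 sequences). The groups did not overlap, as was so for 4.73% of all sequences with the nitrogen-excess libraries lower. The test called 0 of 148 sequences (0%), and 15 had an unadjusted p under 0.05. Without nitrogen-excess shoot 3 the log2 fold change was -1.70 ± 0.65, with an adjusted p of 0.480, and within naming series B it was -1.21 ± 0.70, with an adjusted p of 0.389, both by edgeR. The authors' deposited table gives -1.47 with an adjusted p of 0.349. In root the log2 fold change was -0.27 ± 0.99, with an adjusted p of 0.955 by edgeR, and the groups overlapped. Without control root 3 the root value was 0.01 ± 1.16, with an adjusted p of 0.997 by edgeR.

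Root against shoot gave bdi-miR164a-3p a log2 fold change of -1.20 ± 0.85 in control plants, with an adjusted p of 0.443 by edgeR. All 3 control root libraries were below all 3 control shoot libraries, as were 3.95% of all sequences. In nitrogen-excess plants the log2 fold change was -0.22 ± 0.86, with an adjusted p of 0.973 by edgeR, and the groups overlapped. Without both libraries that stand apart, the values were -1.64 ± 0.90 in control plants and 0.11 ± 0.86 in nitrogen-excess plants, with adjusted p of 0.212 and 0.931. Within naming series B they were -1.81 ± 1.03 in control plants and -1.73 ± 1.37 in nitrogen-excess plants, the second with 1 root library.

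The leading 5p sequence, ata-miR164a-5p, varied widely within groups. It had 6, 5 and 30 counts in nitrogen-excess root 1 to 3, or 16.0, 7.68 and 12.6 CPM, and 19, 3 and 34 counts in control root 1 to 3, or 29.4, 7.07 and 29.2 CPM. It had 228, 5 and 3 counts in nitrogen-excess shoot 1 to 3, or 55.8, 5.68 and 13.2 CPM, and 141, 35 and 32 counts in control shoot 1 to 3, or 92.2, 17.0 and 14.9 CPM. On the TMM scale the highest library in each group was replicate 1, which is naming series A. The next library was level with it only in control root, where control root 3 is one of the libraries that stand apart. Before scaling, replicate 3 was highest in nitrogen-excess root, with 30 of 1590461 listed counts against 6 of 451297 in replicate 1. In control root replicate 3 was also highest, with 34 of 655033 against 19 of 1633631. Group means were 12.1 ± 4.19 CPM in nitrogen-excess root, 21.9 ± 12.8 CPM in control root, 24.9 ± 27.0 CPM in nitrogen-excess shoot and 41.4 ± 44.0 CPM in control shoot (SD, n = 3 each).

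No comparison of groups called ata-miR164a-5p. Nitrogen excess against control gave log2 fold changes of -0.70 ± 0.94 in shoot and -0.86 ± 0.96 in root, and root against shoot gave -1.10 ± 1.06 in nitrogen-excess plants and -0.89 ± 1.03 in control plants, with edgeR adjusted p between 0.722 and 0.955 and overlapping groups in all 4. The shoot value rests on single libraries: it was -2.34 ± 1.03 without nitrogen-excess shoot 1 and 0.45 ± 0.99 without control shoot 1. Root against shoot was 0.31 ± 1.14 in nitrogen-excess plants without nitrogen-excess shoot 1 and 0.46 ± 1.08 in control plants without control shoot 1. Within naming series B the shoot value was -0.93 ± 0.91 and the root value -1.54 ± 3.10. The shoot value was -0.41 ± 1.04 without nitrogen-excess shoot 3, and the root value was -0.43 ± 1.16 without control root 3. Without both libraries, root against shoot was -1.36 ± 1.03 in nitrogen-excess plants and -1.23 ± 1.09 in control plants. Being highest in replicate 1 of every group on the TMM scale was so for 15 of the 177 sequences, or 8.47%. This pattern was noticed after the values were seen and is given with no test.

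**Figure D2:**
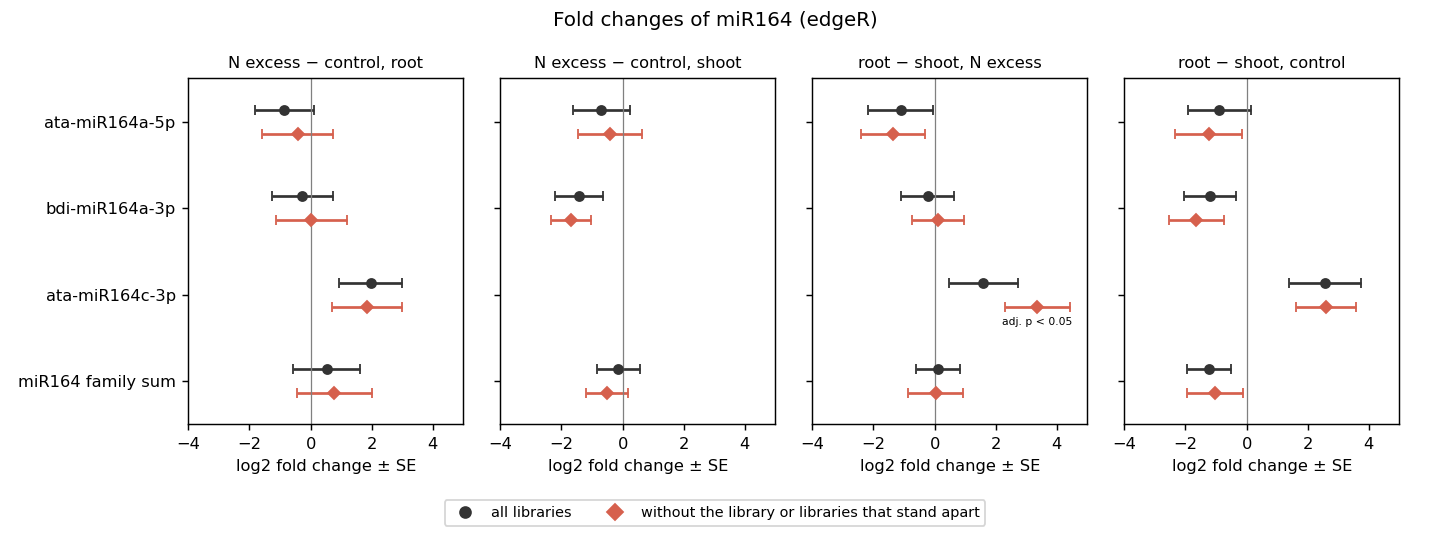
Log2 fold changes with SE (edgeR) of the 3 sequences and of the family sum in 4 comparisons, with all libraries (circles) and without the library or libraries that stand apart (diamonds). The single value past an adjusted p of 0.05 is ata-miR164c-3p in root against shoot of nitrogen-excess plants without both libraries, at 3.36 ± 1.06; ata-miR164c-3p did not pass the filter in shoot.

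The nitrogen response was not shown to differ between root and shoot for any of the 3. The difference of the log2 fold changes, root minus shoot, was -0.97 ± 1.55 for ata-miR164c-3p, 0.97 ± 1.21 for bdi-miR164a-3p and -0.21 ± 1.45 for ata-miR164a-5p, each with an adjusted p of 0.993 by edgeR, which called 0 of 177 sequences (0%). Without both libraries that stand apart the value for ata-miR164c-3p was 0.77 ± 1.43, with the opposite sign.

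The ratio of the 2 leading 3p sequences was not tested between tissues and is given as values. Of their joint counts, ata-miR164c-3p held 36.0%, 87.3% and 81.8% in nitrogen-excess root 1 to 3, and 43.2%, 42.9% and 18.8% in control root 1 to 3. It held 24.6%, 11.1% and 57.1% in nitrogen-excess shoot 1 to 3, and 2.86%, 5.52% and 1.92% in control shoot 1 to 3. By label, root and shoot shares overlap. The lowest root library was control root 3, at 18.8% (95% Wilson interval 10.2 to 31.9%), and the highest shoot library was nitrogen-excess shoot 3, at 57.1% (36.5 to 75.5%). Those are the libraries that stand apart by other sequences. The other 5 root libraries held 36.0% or more and the other 5 shoot libraries 24.6% or less. Counting error spans this gap for some libraries. The intervals of nitrogen-excess root 1 (20.2 to 55.5%) and control root 2 (15.8 to 75.0%) take in the 24.6% of nitrogen-excess shoot 1. This ratio is taken within a library and does not depend on the scaling of the totals.

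**Figure D3:**
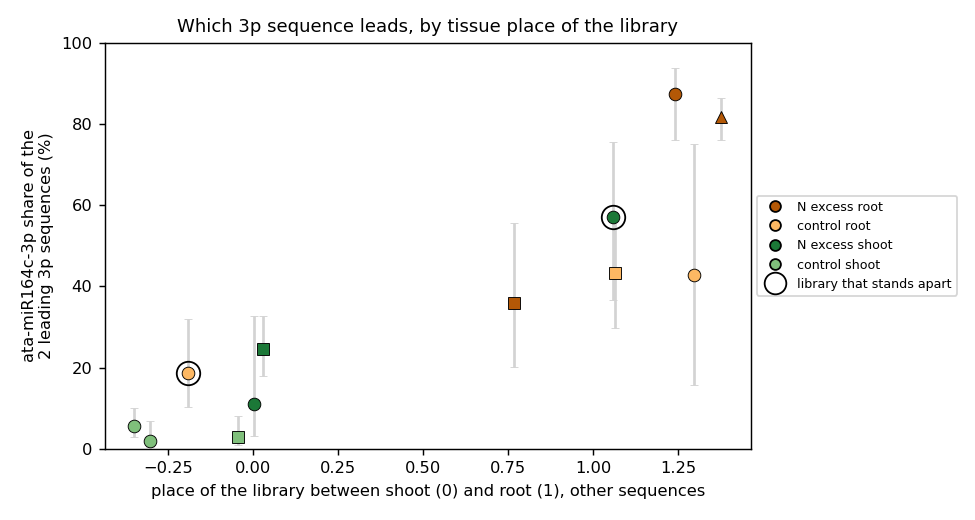
Share of ata-miR164c-3p among the counts of the 2 leading 3p sequences (vertical axis, %, with 95% Wilson intervals) against the place of each library between shoot (0) and root (1) as set by 174 sequences of other families (horizontal axis, no unit). Nitrogen-excess shoot 3, at 57.1%, lies with the root libraries, and control root 3, at 18.8%, lies with the shoot libraries on both axes.

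The 3p share of all miR164 counts was 80.6% (63.7 to 90.8%), 91.8% (82.2 to 96.4%) and 86.4% (81.5 to 90.1%) in nitrogen-excess root 1 to 3, with 95% Wilson intervals in parentheses. In control root 1 to 3 it was 68.8% (56.6 to 78.8%), 72.7% (43.4 to 90.3%) and 60.0% (49.4 to 69.8%). Every nitrogen-excess root library was above every control root library, while the interval of control root 2, which held 11 counts, takes in the values of nitrogen-excess root 1 and 3. Nitrogen-excess shoot 3, which lies among the root libraries by its other sequences, had 87.5% (69.0 to 95.7%) on 24 counts, a value within the range of nitrogen-excess root. Control shoot 2, at 81.3%, lay within that range as well. The means were 86.3 ± 5.58% in nitrogen-excess root and 67.2 ± 6.51% in control root (SD, n = 3 each), or 70.7 ± 2.81% without control root 3 (n = 2). With bdi-miR164a-3p and ata-miR164a-5p alone the means were 62.3% in nitrogen-excess root and 55.8% in control root, a smaller gap than with ata-miR164c-3p counted in. The groups then overlapped. The 38 3p and 30 5p counts of nitrogen-excess root 3 are a lower 3p share than the 25 and 19 of control root 1. No test was made of a share over the family, and 3 against 3 libraries cannot give a two-sided exact permutation p below 0.1.

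In shoot the 3p share was 35.2% (30.4 to 40.3%), 73.1% (53.9 to 86.3%) and 87.5% (69.0 to 95.7%) in nitrogen-excess shoot 1 to 3, and 42.3% (36.4 to 48.6%), 81.3% (75.5 to 86.0%) and 77.1% (69.6 to 83.2%) in control shoot 1 to 3. Replicate 1 was the low library in both shoot groups and was the only one in which 5p counts led. The means were 65.3 ± 27.0% in nitrogen-excess shoot and 66.9 ± 21.4% in control shoot (SD, n = 3 each), a difference smaller than the SDs. Without nitrogen-excess shoot 3 the nitrogen-excess shoot mean was 54.1 ± 26.8% (n = 2). The naming series and the replicate number cannot be told apart for these libraries. The 3p arm held over 50% in 10 of the 12 libraries. Over the groups, the 4 libraries of naming series A ran from 35.2 to 80.6% and the 8 of B and C from 60.0 to 91.8%.

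**Figure D4:**
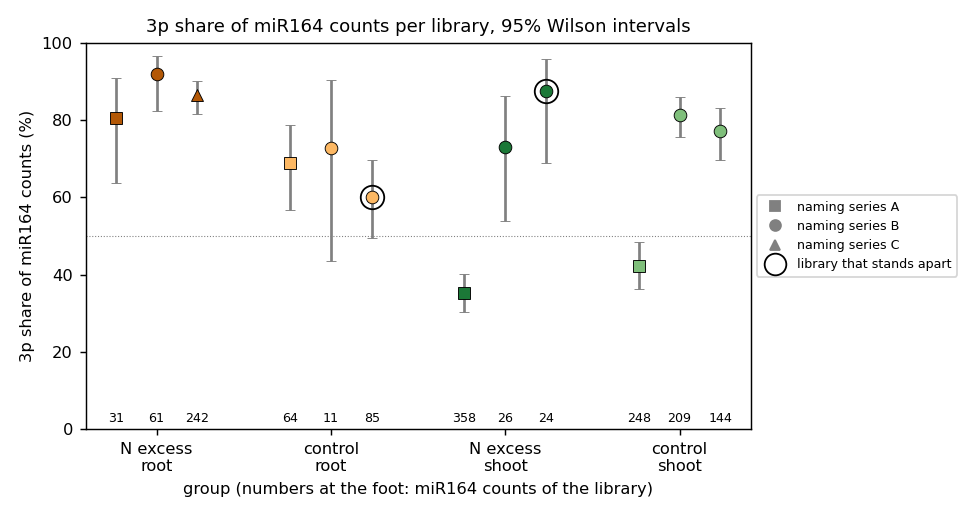
3p share of miR164 counts (%) in each library, by group, with 95% Wilson intervals; point shapes give the naming series, rings the libraries that stand apart, and the numbers at the foot the miR164 counts behind each point. The 3 nitrogen-excess root libraries lie at 80.6 to 91.8%, above the control root libraries at 60.0 to 72.7%, and replicate 1 of both shoot groups lies below 50%.

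The 3 remaining members with more than 2 counts were thin. The 3p sequence bra-miR164b-3p had 0, 1 and 0 counts in nitrogen-excess root, 0, 1 and 2 in control root, 0, 1 and 0 in nitrogen-excess shoot and 0, 6 and 7 in control shoot. It has the seed of ata-miR164c-3p, but 13 of its 18 counts were in control shoot, where ata-miR164c-3p was lowest. The 5p sequence zma-miR164h-5p had 7 of its 11 counts in control shoot, 3 in nitrogen-excess shoot and 1 in nitrogen-excess root, and bra-miR164c-5p had all 3 in root. None of them passed the filter on low counts, and the authors' deposited table gives bra-miR164b-3p log2 fold changes for nitrogen excess against control of -1.57 in root (p = 0.613 from DESeq2) and -2.27 in shoot (p = 0.359 from DESeq2).

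Summed over the family, miR164 stood at 80.6, 63.0 and 100.1 CPM in nitrogen-excess root 1 to 3, 69.8, 24.2 and 73.1 CPM in control root 1 to 3, 88.5, 38.0 and 100.7 CPM in nitrogen-excess shoot 1 to 3, and 176, 122 and 97.9 CPM in control shoot 1 to 3, scaled over family sums. The means were 81.2 ± 18.6 CPM in nitrogen-excess root, 55.7 ± 27.3 CPM in control root, 75.7 ± 33.3 CPM in nitrogen-excess shoot and 132 ± 40.1 CPM in control shoot (SD, n = 3 each). Control shoot thus had the highest mean, and the other 3 means differed from each other by less than the largest of their SDs. The root against shoot comparison in control plants gave -1.24 ± 0.72 on the log2 scale, with every root library below every shoot library, as were 18.9% of the 74 families, and an adjusted p of 0.264 by edgeR, which called 0 of 74 (0%). Before scaling these groups overlapped, with control root 3 at 129.8 CPM of the listed counts and control shoot 3 at 116.5 CPM. In nitrogen-excess plants it gave 0.11 ± 0.71 with an adjusted p of 0.962, and again 0 of 74 (0%) were called. Nitrogen excess against control gave -0.14 ± 0.70 in shoot, with an adjusted p of 0.925 when 5 of 57 families (8.77%) were called, and 0.52 ± 1.09 in root, with an adjusted p of 0.981 when 0 of 65 (0%) were called. Without nitrogen-excess shoot 3 the shoot value was -0.50 ± 0.69, with an adjusted p of 0.769 by edgeR. Without control root 3 the root value was 0.77 ± 1.23, with an adjusted p of 0.976 by edgeR. Without both libraries, root against shoot was -1.04 ± 0.92 in control plants and 0.03 ± 0.89 in nitrogen-excess plants. The edgeR adjusted p were 0.425 and 0.981. The family sum adds members whose estimates in root against shoot of control plants had opposite signs, 2.56 ± 1.17 for ata-miR164c-3p and -1.20 ± 0.85 for bdi-miR164a-3p, neither called (adjusted p of 0.234 and 0.443 by edgeR) and the difference between them not tested.

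Families that act beside miR164 were read from 2 fixed lists. The first holds 4 families of auxin signalling, which also acts in lateral roots and organ boundaries: miR160, miR167, miR390 and miR393. None was called in either direction in any of the 4 comparisons of family sums, and their median log2 fold changes were -0.40 for nitrogen excess in shoot, 0.04 for nitrogen excess in root, -0.13 for root against shoot in nitrogen-excess plants and -1.32 for root against shoot in control plants. The medians over all families tested were 0.60, -0.12, 0.00 and 0.06 in the same order. In control plants all 4 of these families had lower root than shoot estimates, among them miR393, which acts on auxin receptor messages, at -1.94 ± 0.90 with an adjusted p of 0.181, and miR390, which starts trans-acting siRNA formation, at -1.65 ± 0.71 with an adjusted p of 0.174, by edgeR. The second list holds 12 families that act on transcription factors, and none was called in any of the 4 comparisons either. Without both libraries that stand apart, 2 of the 12 were called in root against shoot of control plants, against 34.6% of all families: miR166, which acts on HD-ZIP genes, was higher in root at 1.99 ± 0.51 with an adjusted p of 0.0056, and miR396, which acts on growth-regulating factor genes, was lower in root at -2.78 ± 0.81 with an adjusted p of 0.012.

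The patterns most like those of the leading members were sought among 174 sequences of other families, by the mean absolute difference of log2(CPM + 1) after centring each sequence over the 12 libraries. For bdi-miR164a-3p these were gma-miR390a-5p at 0.40, osa-miR5538 at 0.59 and ata-miR156e-3p at 0.60, where the median over all 174 was 1.23. For ata-miR164a-5p they were zma-miR393a-5p at 0.48, mtr-miR172c-3p at 0.53 and gma-miR156q at 0.56, with a median of 1.28, and gma-miR156q is also among the 15 sequences highest in replicate 1 of every group. For ata-miR164c-3p they were gma-miR396e at 0.52, hvu-miR397b-3p at 0.58 and osa-miR444a-3p at 0.68, with a median of 1.66. All these sequences share the same libraries and depths with miR164.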

How the data were processed

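Small RNA libraries of 12 barley samples (4 groups of 3) were compared from 2 deposited tables, one for root and one for shoot. Per the file headers, each lists raw counts per sequence for each library. The authors also deposited normalised values, used here only to identify the columns, which are read as a signal, and log2 fold changes and p-values of their own fit; the submitters' processing notes name DESeq2. How reads were trimmed and matched to the listed names is not stated in the labels or the headers. The members and lists were chosen with earlier results of these data known.

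Raw counts were tested with edgeR 4.0.16 (R 4.3.3) by quasi-likelihood, with TMM scaling and filterByExpr (minimum count 10, minimum total 15), and p-values were adjusted by Benjamini-Hochberg over all sequences or families tested, at 0.05. Nitrogen excess was tested within each tissue; root against shoot was tested in a fit of all 12 libraries, so fold changes and printed CPM are on different scalings. Family sums left out 1 sequence whose name gives no family. Printed CPM have no pseudocount; log2(CPM + 1) was used for the place of libraries and for like patterns. Sequences named are all members that passed the filter, the other counted members by their counts, and the 3 nearest patterns of each member that passed the filter. The procedure was tested on simulated data. Alternatives were other size factors, total counts, other filters, DESeq2 1.42.0, a replicate block, naming series as a term or B alone, and left-out libraries. Between nitrogen-excess root and shoot, same-numbered libraries deviated together (correlations 0.49, 0.19 and 0.34), and the replicate block is given there. Nitrogen-excess and control libraries are of different plants, and their same-numbered correlations were 0.50, 0.11 and 0.08 in shoot and 0.13, 0.48 and -0.25 in root. The correlations therefore do not show that a number pairs root and shoot samples. The labels do not say that a number marks shared plants.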

Additional observations from a re-analysis of the deposited data

How the results depend on the processing

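Of 348 log2 fold changes recomputed for the miR164 members and the family sum, 317 kept their direction and their side of the threshold, 30 changed sign, 1 passed the threshold that it had missed and 0 lost a call; the causes were not tested. The 1 that passed is ata-miR164c-3p in root against shoot of nitrogen-excess plants without both libraries that stand apart (3.36).

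For bdi-miR164a-3p, root against shoot in nitrogen-excess plants became 0.059 with at least 20 counts in 3 libraries and 0.11 without both libraries. The tissue difference of the nitrogen response became 0.084 for ata-miR164a-5p with the replicate block, and for ata-miR164c-3p 0.14 with total counts, 0.17 in naming series B alone and 0.77 without both libraries. The family sum in root against shoot of nitrogen-excess plants became -0.13 with total counts, -0.20 with at least 20 counts in 3 libraries and -0.15 with naming series as a term. With each library left out in turn, bdi-miR164a-3p ran from -0.94 to 0.086 for nitrogen excess in root and from -0.72 to 0.48 for root against shoot in nitrogen-excess plants. In the same way ata-miR164a-5p ran from -2.34 to 0.45 for nitrogen excess in shoot, from -1.95 to 0.31 and from -1.72 to 0.46 for root against shoot in nitrogen-excess and control plants, and from -1.57 to 1.59 for the tissue difference of the response. For ata-miR164c-3p the tissue difference ran from -1.19 to 1.03, and for the family sum root against shoot in nitrogen-excess plants ran from -0.34 to 0.72.

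Counts of called sequences moved as follows. Nitrogen excess in shoot, at 0, went to 8 with no filter, 8 with DESeq2, 3 with the replicate block and 0 to 4 with 1 library left out, the 4 without nitrogen-excess shoot 1. Root against shoot in nitrogen-excess plants, at 0, went to 35 without both libraries. In control plants it went to 21 with no filter, 23 with DESeq2, 41 without both and 0 to 26 with 1 left out, with 26 without control root 3, 13 without nitrogen-excess shoot 3 and 10 without nitrogen-excess shoot 1. Counts of called families moved too. Nitrogen excess in shoot, at 5, went to 0 with DESeq2 size factors, with total counts, with at least 20 counts in 3 libraries and in series B alone, to 3 with no filter, to 11 with naming series as a term and to between 0 and 1 with 1 left out; in root it went to between 0 and 1. Root against shoot in nitrogen-excess plants went to 1 with no filter and 26 without both, and in control plants to 8 with no filter, 2 with at least 20 counts in 3 libraries, 19 with DESeq2, 27 without both and 0 to 23 with 1 left out. The 3p share of the leading pair alone was 62.3% in nitrogen-excess root and 55.8% in control root, with overlapping libraries. With 1 library left out the mean 3p shares ran from 83.5 to 89.1% in nitrogen-excess root, 64.4 to 70.7% in control root, 54.1 to 80.3% in nitrogen-excess shoot and 59.7 to 79.2% in control shoot.

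With the replicate block, nitrogen excess in shoot had 3 sequences called, and no miR164 call changed in any comparison; over all pairs of groups, correlations of same-numbered libraries ran from -0.25 to 0.51, with 8 of 12 over 0.1. Scaling moved the median over all sequences in root against shoot of control plants to 0.09 with DESeq2 size factors and -0.61 with total counts, from 0.24 with TMM, and the family median for nitrogen excess in shoot to 0.01 and -0.24, from 0.60. Low counts limit all values: 26 of 29 members did not pass the filter in any fit, among them the 19 with no count. Over the whole series, 177 of 3258 sequences passed it in the 12-library fit.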
